A study of Mus musculus with 8 samples.

Results

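CpG methylation was read at 10 acetylcholine receptor genes in brain tissue of mice from cocaine and saline self-administration, in a study of hippocampal learning. The genes were chosen by name: the nicotinic subunit genes Chrna3, Chrna4, Chrna5, Chrna7, Chrnb2 and Chrnb4, and the muscarinic receptor genes Chrm1, Chrm2, Chrm3 and Chrm4. They are 10 of the 18610 protein-coding genes with at least 1 cytosine read in all mice inside their span or within 5 kb of it. Both groups were male C57 BL/6 mice, 4 labelled self-administration with cocaine and 4 with saline, with 1 library each, and no age, dose or number of sessions is in the labels. The tissue was dissected and carries the label dDG DGC, read here as dentate granule cells; a dissected layer can hold more than 1 cell type, and no sort is described. Reduced representation bisulfite sequencing reads CpG-rich restriction fragments after bisulfite treatment, which leaves methylated cytosines as cytosine, so each cytosine has a methylation level, the percent of its reads that were methylated.

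Acetylcholine reaches the hippocampus mainly from the septum. Nicotinic receptors are ion channels built of several subunits, in which alpha subunits carry the main face of the binding site and beta subunits complete it, while muscarinic receptors couple to G proteins. Chrna7 forms channels of a single kind of subunit that pass calcium, Chrna4 and Chrnb2 make the most common heteromeric receptor of the brain, and Chrna3, Chrna5 and Chrnb4 lie side by side on 1 chromosome. Chrm1 and Chrm3 couple to the Gq pathway, and Chrm2 and Chrm4 to the Gi pathway. In mammals, CpG-dense promoters are usually free of methylation and gene bodies are usually methylated.

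The reads summed over listed cytosines lay between 87964952 and 141775386 per mouse, and median coverage per cytosine between 34 and 66 reads. Saline 1 stood apart: among cytosines of intermediate level, from 20% to 80%, and a coverage of 30 to 40, it read fully methylated or fully unmethylated at 14.3%, while the other 7 mice did so at 0.368% to 2.87%. No RNA was measured, so the cell type could be viewed only through methylation. Of the 5 genes that mark granule cells, Prox1 had a locus level of 8.52% in cocaine and 11.3% in saline mice, Dock10 21.9% and 25.3%, and Pdzd2 47.5% and 51.2%. The loci of C1ql2 and Calb1 were not among the tested loci. Of 9 genes that mark other hippocampal cells 8 loci were tested, and they spread from low to high levels. The oligodendrocyte genes Mbp (33.3% in cocaine, 36.2% in saline mice) and Mog (86.7% and 85.3%) were far apart, as were the microglial gene Cx3cr1 (91.3% and 94.6%) and the interneuron genes Gad1 (11.8% and 12.5%) and Gad2 (19.7% and 23.3%). Wfs1 read 24.4% and 22.6%, Fibcd1 18.7% and 20.5%, and the astrocyte gene Aqp4 24.7% and 27.4%. A low level is no measure of expression, and the purity of the tissue was not tested.

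At these 10 genes, 657 cytosines had at least 10 reads in each of the 8 mice. They fell into 89 runs, in which neighbouring cytosines are at most 100 bp apart, of the 259049 runs in all. Coverage was uneven between genes. Chrm3, the longest of the genes at 485.577 kb, held 137 of these cytosines, Chrm4 132, Chrna7 89 and Chrna5 88, while Chrna4 held 14. Chrna3 and Chrnb4 share 52 cytosines within 5 kb of one another, and Chrna3 and Chrna5 share 9, so the values of these 3 genes are not independent. Of the 89 runs, 45 had a pooled level above 70%, 18 lay from 20% to 70%, 9 from 5% to 20% and 17 below 5%.

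On GRCm38.p6 the nicotinic genes lie on chromosome 9 (Chrna5 at 54980827 to 55011420, Chrna3 at 55010117 to 55026562, Chrnb4 at 55028154 to 55048953), chromosome 2 (Chrna4 at 181022311 to 181043579), chromosome 3 (Chrnb2 at 89753448 to 89764632) and chromosome 7 (Chrna7 at 63098692 to 63212526). The muscarinic genes lie on chromosome 19 (Chrm1 at 8664005 to 8683606), chromosome 6 (Chrm2 at 36387991 to 36528638), chromosome 13 (Chrm3 at 9875486 to 10361062) and chromosome 2 (Chrm4 at 91922189 to 91929835). Runs inside these spans were not assigned to exons or introns here.

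The promoters below are printed because their own CpGs were read, which shows what the unmethylated starts of these genes look like. They give the 250 bases before the start, 5′ to 3′ on the gene's strand, from RefSeq on GRCm38.p6, the assembly that mm10 is built on. Capitals mark CpGs read in all 8 mice. Of the 10 genes, 9 matched the promoter table, Chrna5 with 2 starts. The strands are minus for Chrna7 and Chrnb4 and plus for Chrna5 (at its start at base 54981488), Chrm4 and Chrm2.
Chrna7 chr7:63212527-63212776: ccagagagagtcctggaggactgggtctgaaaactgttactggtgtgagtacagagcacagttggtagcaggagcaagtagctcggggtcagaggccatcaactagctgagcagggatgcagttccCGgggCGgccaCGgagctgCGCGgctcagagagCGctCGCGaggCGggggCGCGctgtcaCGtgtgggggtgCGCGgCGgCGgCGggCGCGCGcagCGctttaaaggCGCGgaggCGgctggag
Chrna5 chr9:54981238-54981487: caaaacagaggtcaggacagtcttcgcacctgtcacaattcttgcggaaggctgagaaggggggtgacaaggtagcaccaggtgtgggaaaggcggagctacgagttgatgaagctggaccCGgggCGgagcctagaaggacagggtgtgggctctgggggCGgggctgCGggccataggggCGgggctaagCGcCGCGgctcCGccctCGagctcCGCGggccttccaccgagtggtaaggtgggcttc
Chrnb4 chr9:55048545-55048794: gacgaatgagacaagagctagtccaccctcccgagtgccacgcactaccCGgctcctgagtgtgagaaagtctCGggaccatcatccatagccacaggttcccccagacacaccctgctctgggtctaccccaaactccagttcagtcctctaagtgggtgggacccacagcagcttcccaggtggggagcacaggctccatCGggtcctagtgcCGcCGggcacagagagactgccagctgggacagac
Chrm4 chr2:91921939-91922188: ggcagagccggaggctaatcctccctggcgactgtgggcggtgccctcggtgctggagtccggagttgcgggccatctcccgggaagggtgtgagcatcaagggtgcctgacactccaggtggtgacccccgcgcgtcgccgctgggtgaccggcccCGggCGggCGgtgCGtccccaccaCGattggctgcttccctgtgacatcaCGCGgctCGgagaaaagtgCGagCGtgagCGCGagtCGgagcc
Chrm2 chr6:36387834-36388083: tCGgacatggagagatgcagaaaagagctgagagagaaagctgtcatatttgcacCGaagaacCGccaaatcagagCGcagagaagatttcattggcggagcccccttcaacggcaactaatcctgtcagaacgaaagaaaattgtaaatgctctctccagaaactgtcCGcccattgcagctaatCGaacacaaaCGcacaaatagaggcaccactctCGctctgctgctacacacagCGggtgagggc

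In the window from 250 bases before to 50 bases after the start, the Chrna7 promoter held 35 CpGs, more than 93.0% of the 32851 promoters in the table. The Chrm4 promoter held 30 and the Chrna5 promoter printed above 25, against a median of 7 over the table. Chrnb4 held 14, at an observed-to-expected CpG ratio of 0.475, and Chrm2 held 16, at 0.769. The motif GGGCGG, searched on both strands and itself holding a CpG, occurred 4 times in the Chrm4 window, 4 times in the Chrna5 window, 1 time each in Chrna7 and Chrm2 and 0 times in Chrnb4. It stands in 35.7% of all promoters. All 111 cytosines of the files that fall in the receptor promoters lie on a CpG of the RefSeq sequence.

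Methylation was low at the starts of 5 of the 6 nicotinic genes, with Chrna4 apart. Within 1 kb of its start Chrna7, the homomeric calcium-passing subunit, read 0%, 0.818%, 0.724% and 0.647% in cocaine 1, 2, 3 and 4 over 77 cytosines. In saline 1, 2, 3 and 4 it read 0.104%, 2.28%, 0.0989% and 0.0981%. Only saline 2 exceeded 1%, and the groups overlapped. Chrna5, an accessory subunit that modulates channels formed with others, read 1.79%, 0.0687%, 0.109% and 2.61% in cocaine mice over 76 cytosines. In saline mice it read 0.0567%, 2.62%, 0.582% and 0.126%. The values above 1% came from cocaine 1, cocaine 4 and saline 2. Chrna3, a subunit of ganglionic receptors, lay between 0.777% and 2.95% in the cocaine group and between 0.486% and 2.62% in the saline group over 41 cytosines. Chrnb2, the partner subunit of Chrna4, lay between 0% and 3.41% and between 0% and 1.85% over 26 cytosines. Chrnb4, over 10 cytosines, read 2.12%, 1.13%, 1.08% and 2.29% in cocaine and 1.80%, 0.250%, 0.459% and 0% in saline mice. Saline 1 kept these Chrnb4 groups from separating.

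The muscarinic starts were as low. Chrm2, a Gi-coupled receptor, lay between 0.277% and 1.42% in the cocaine group and between 0% and 0.421% in the saline group over 25 cytosines. Chrm3, a Gq-coupled receptor, lay between 0.199% and 0.590% and between 0.440% and 0.939% over 56 cytosines. Chrm4, another Gi-coupled receptor, was the highest of the muscarinic starts, at 2.36%, 1.72%, 4.02% and 2.92% in cocaine and 2.52%, 2.15%, 2.07% and 2.25% in saline mice over 49 cytosines. Its highest value, in cocaine 3, came with 4.66% in the run of 15 CpGs from -93 to 8 bases relative to the start, which read at most 0.139% in the other 7 mice. Without the filter on level that run had p = 0.0498 and an adjusted p of 0.815 in the quasi-binomial test, moderated with limma. Where a start window read 0 of its reads as methylated, counting error alone allowed up to 0.0513% to 0.664%, with Chrna4 apart. No molecular identifiers are described, so reads need not be independent molecules, and such limits cover counting error only.

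Chrna4 was thinly read at its start. Its 2 cytosines there, 520 to 531 bases downstream, read 3.12%, 18.9%, 0% and 4.55% in cocaine and 12.5%, 15.9%, 18.2% and 23.2% in saline mice. All but cocaine 2 lay below the saline mice. Depth fell to 10 reads per cytosine, and 0 of 20 reads in cocaine 3 allows a level of up to 15%, so no test was made on so few cytosines. No cytosine within 1 kb of either end of Chrm1 was read in all mice.

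The 9 receptor start windows with at least 5 cytosines, 2 of them over the same cytosines of Chrna5, all had a pooled level below 5%, as did 73.9% of the 20495 start windows read in the genome. None entered the test on start windows, which took levels from 5% to 95% and called 0 of 5263 windows (0%). Of those 5263, 5.7% had an unadjusted p under 0.05, 5.09% with the lower mean in cocaine mice, and in 64.9% cocaine mice had the lower mean at any p. With no filter on level, the 9 receptor differences ran from -0.148 to 1.03 percentage points, with adjusted p values from 0.746 to 0.993 in the quasi-binomial test.

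**Figure D1:**
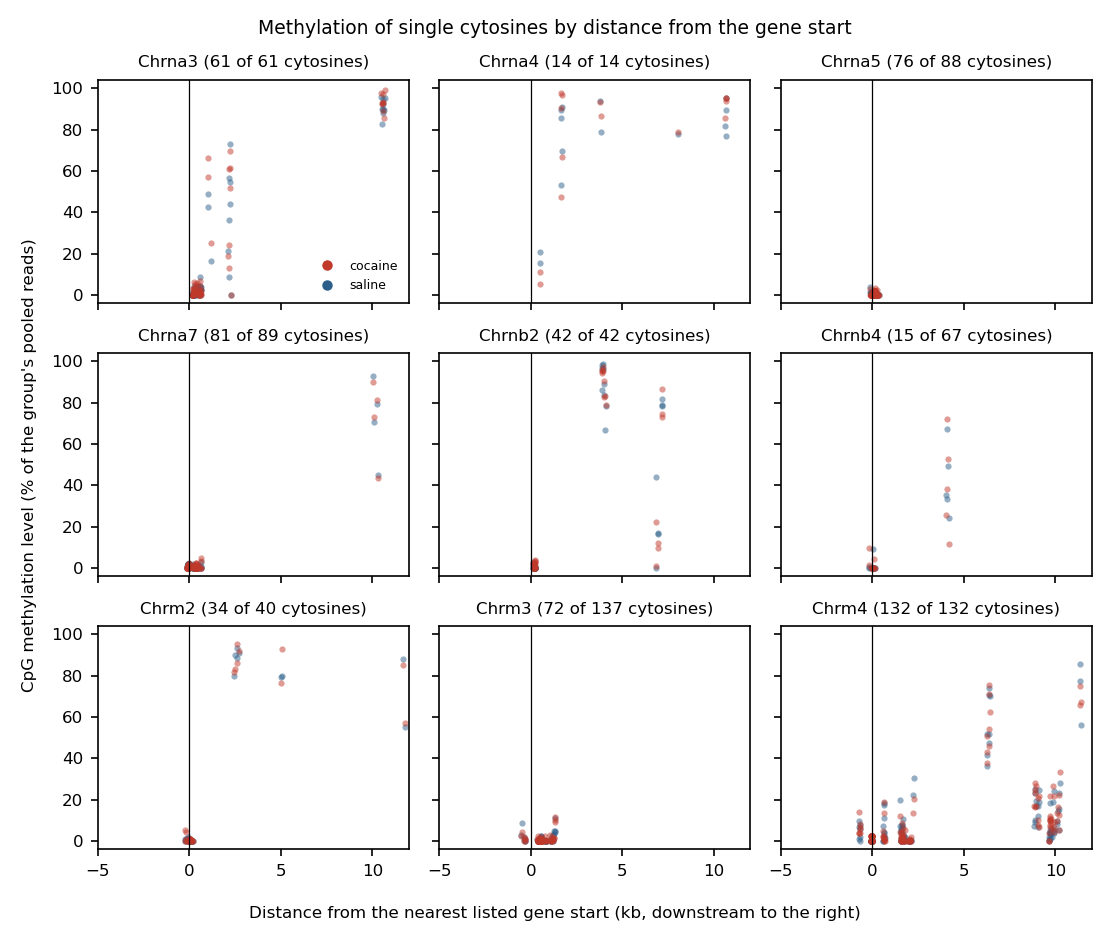
Methylation level of single cytosines, in percent of the pooled reads of each group's 4 mice, against distance from the nearest listed gene start in kb, for the 9 receptor genes with a listed start. Points beyond the window from 5 kb upstream to 12 kb downstream are left out, and the titles give how many are shown; most cytosines at the start sit near 0% in both groups, the 2 of Chrna4 lie higher, and higher levels appear further into the genes, though Chrm4 is mostly low to 2110 bases and Chrm3 to 1351 bases.

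Away from the start, 7 of the 9 genes with a listed start were mostly methylated. Outside the 1 kb around its start, Chrna5 read 87.5% ± 3.75 (SD, n = 4) in cocaine and 87.0% ± 1.38 in saline mice, Chrm2 85.6% ± 2.48 and 86.6% ± 2.32, and Chrna4 85.2% ± 2.36 and 83.3% ± 2.60. Chrna3 read 73.0% ± 2.86 and 69.6% ± 4.27, Chrna7 69.3% ± 5.0 and 70.1% ± 3.96, and Chrnb2 67.6% ± 5.92 and 69.9% ± 5.06. Chrm3 was somewhat lower at 61.7% ± 2.76 and 63.1% ± 2.08. Of its 81 cytosines there, 16 lie just beyond the start window, in a run at 1072 to 1351 bases with a pooled level of 3.43%. Chrm4 and Chrnb4 differed from the rest, at 13.7% ± 2.69 and 14.2% ± 2.21 and at 14.1% ± 2.45 and 12.8% ± 2.28. Of the 12 Chrna5 cytosines outside its start, 9 lie in the neighbouring Chrna3. Those in Chrna5 itself read 53.5%, 93.6% and 58.4% in the pooled cocaine reads and 69.9%, 89.3% and 67.1% in the pooled saline reads. Of the 67 Chrnb4 cytosines 52 belong to the neighbouring Chrna3, mostly in its start region. Outside the Chrm4 span lie 74 of its 132 cytosines, many in the neighbouring gene Mdk. In each of these 9 genes the groups overlapped.

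Among runs of at least 3 CpGs, the denser ones were mostly the less methylated. The 15 runs below 5% had a median of 7.58 CpGs per 100 bp, and the 12 runs above 70% a median of 4.25. Their ranges overlapped, from 4.30 to 19.3 and from 1.90 to 13.6. Across the 39 runs Spearman's rho between density and pooled level was -0.601, a description of runs that share libraries, genes and fragment selection. Of the 13 such runs centred within 1 kb of a listed start, 11 were below 5%. The other 2 were both at Chrm4, at 5.67%, raised by cocaine 4 at 26.0%, and at 5.18%.

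Over the whole locus, which is the gene's span with 5 kb either side, the 10 genes fell into 3 ranges. Chrna7, with 77 of 89 cytosines within 1 kb of the start, was the lowest at 6.01%, 8.30% and 11.2% (lowest, median and highest of 8 mice). Chrna5 followed at 7.28%, 10.03% and 13.8%, Chrm4 at 8.41%, 10.6% and 13.6%, Chrnb4 at 8.62%, 11.9% and 16.3% and Chrm1 at 9.51%, 13.3% and 16.8%. The ranges of these 5 overlapped one another. The same mice were read at each locus, and among these 5 only Chrm1 over Chrna7 kept its order in every mouse. Chrna3, at 20.2%, 24.4% and 27.7%, lay above all 5 without overlap. The order is one of loci with their flanks: 52 of the 67 Chrnb4 cytosines lie in Chrna3, and 24 of the 48 Chrm1 cytosines in 9830166K06Rik. Chrnb2 (19.1%, 25.2% and 30.9%), Chrm3 (26.3%, 32.1% and 37.0%) and Chrm2 (29.3%, 33.2% and 39.0%) overlapped their neighbours in this order. Chrna4, with 2 of 14 cytosines near its start, stood alone at 73.9%, 78.0% and 81.1%.

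**Figure D2:**
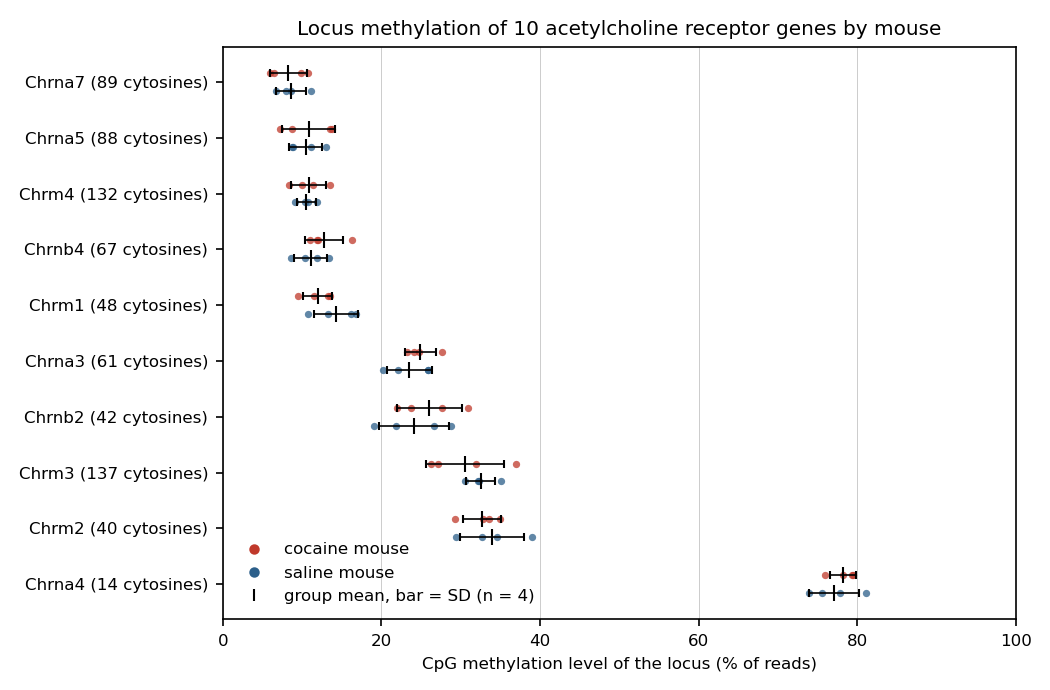
Methylation level of each receptor gene locus in percent of reads (x axis), with 1 point per mouse, and the group mean with its SD (n = 4) as a bar. In every gene the cocaine and saline mice overlap, and Chrna4 lies far above the other 9.

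Whether cocaine self-administration went with another level was asked locus by locus, in a fit over 14470 protein-coding gene loci. None of the 10 receptor loci passed, and 0 did in the genome (0%). At an unadjusted p under 0.05 the receptor genes also gave 0, against 5.12% of all loci (4.71% with the lower mean in cocaine mice), and limma on logit values called 0 loci. Locus means were lower in cocaine mice for Chrm1 (11.96% ± 1.87 against 14.3% ± 2.80), Chrm3 (30.6% ± 4.94 against 32.5% ± 1.86), Chrm2 (32.7% ± 2.43 against 33.9% ± 4.01) and Chrna7 (8.28% ± 2.37 against 8.63% ± 1.86). They were higher for Chrnb2 (26.1% ± 4.04 against 24.1% ± 4.40), Chrnb4 (12.8% ± 2.39 against 11.1% ± 2.07), Chrna3 (24.9% ± 1.93 against 23.5% ± 2.83), Chrna4 (78.2% ± 1.63 against 77.1% ± 3.16), Chrna5 (10.9% ± 3.33 against 10.4% ± 2.05) and Chrm4 (10.8% ± 2.19 against 10.5% ± 1.18). The 4 lower of 10 compare with 72.6% lower over all loci, and the median difference of 0.358 points with -1.13 points over all loci. These shares rest on single mice: without cocaine 4, 6 of the 10 were lower against 84.2% of all loci, at a median over all loci of -2.10 points, and without cocaine 3, 3 of the 10 against 60.2%, at -0.53 points. With each cytosine weighted equally the median over all loci was -0.55 points, and 4 of the 10 were lower. Adjusted p values lay between 0.933 and 0.998 in the quasi-binomial test, and exact permutation p values (two-sided, 70 assignments) between 0.229 and 0.8286, where 4 against 4 mice can reach 0.0286. For Chrm4 the difference was -2.29 points without the 5 kb flanks (adjusted p = 0.909 in the same test), so its sign depends on them, and it also turned without cocaine 4 and without saline 1. The sign turned in 4 of the alternatives for Chrna5, in 3 for Chrna7, in 2 for Chrm2 and in 1 for Chrnb2, while Chrna3, Chrna4, Chrnb4, Chrm1 and Chrm3 kept theirs in all that were run.

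Within the genes, runs gave a finer view. Of the 39 runs with at least 3 CpGs, 23 had a pooled level from 5% to 95% and were tested with all 92484 such runs of the genome, 15 lay below 5% and 1 above 95%. Of the 23, 18 overlap a receptor gene and 5 lie in the 5 kb flanks of Chrm4. None of the 23 was called, as in the whole genome (0 of 92484, 0%), and 1 had an unadjusted p under 0.05, against 5.65% of all tested runs. That run had the higher mean in cocaine mice, while 4.57% of all tested runs had such a p and the lower mean. Limma on logit values called 0. Of the 23, 12 had the lower mean in cocaine mice, 52.2%, against 61.8% of all tested runs, and the median difference was -0.143 points against -1.06. The spread between mice within a group had a median SD of 5.65 points over the 23 runs and 4.85 points over all tested runs.

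**Figure D3:**
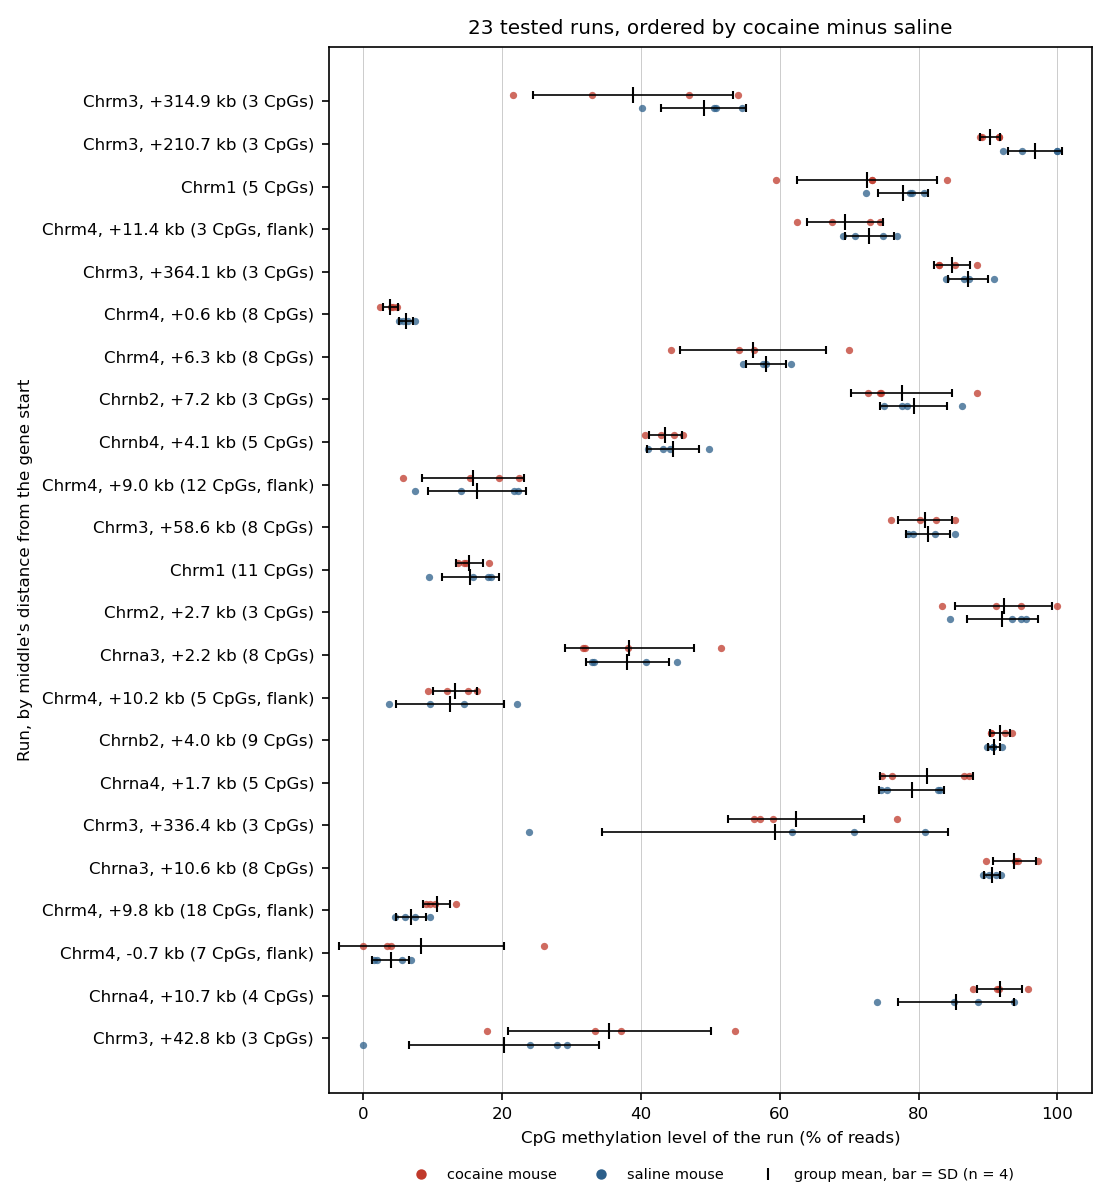
Methylation level of the 23 tested runs in percent of reads (x axis), ordered by cocaine minus saline from most negative at the top, with 1 point per mouse and group means with SD (n = 4). Labels give the gene, the distance of the run's middle from the listed start and the CpG number, and flank marks runs outside the receptor gene; the groups do not overlap in the Chrm3 run 210688 bases and the Chrm4 run 644 bases from the start.

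The run with the smallest p lies downstream of Chrm4 and inside Mdk, which encodes the growth factor midkine. This run of 18 CpGs on chromosome 2, 91931819 to 91932114, read 13.4%, 10.3%, 9.02% and 9.63% in cocaine and 4.58%, 7.42%, 9.64% and 5.94% in saline mice. Cocaine 1 was the highest, and saline 3 overlapped the cocaine mice. The means were 10.6% ± 1.94 and 6.89% ± 2.17 (p = 0.0334, adjusted p = 0.876 in the quasi-binomial test). The same genome-wide fit is the base of all run p values here.

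Chrm4 itself carried little methylation over its first 2 kb. From 580 to 709 bases downstream of the start, a run of 8 CpGs read 4.91%, 4.03%, 4.22% and 2.36% in cocaine and 7.44%, 6.36%, 5.11% and 5.66% in saline mice. The groups did not overlap, at 3.88% ± 1.08 and 6.14% ± 1.01, a difference of -2.26 points that did not pass (adjusted p = 0.894). Its pooled level was 5.18%, and all 4 cocaine mice lay below the 5% limit for testing, so the run was tested only through its saline mice. The run of 20 CpGs at 1514 to 1777 bases read 2.93% ± 1.14 in cocaine and 4.32% ± 1.17 in saline mice, with overlap. Further in, at 6239 to 6453 bases, 8 CpGs read 56.2% ± 10.5 in cocaine and 58.0% ± 2.85 in saline mice, with cocaine 3 lowest at 44.4% and cocaine 4 highest at 69.9%. In the flank, from -716 to -644 bases relative to the start, 7 CpGs read 26.0% in cocaine 4 and at most 6.90% in the other 7 mice. The pooled level of this flank run was 5.67%, above the 5% limit for testing only through cocaine 4. Its other cocaine mice read 0% to 3.94%, and the saline mean was 3.97%.

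Chrm3, the longest gene, held 6 of the tested runs, some with a wide spread between mice. A run of 3 CpGs 42740 to 42796 bases into the gene, on chromosome 13 at 10318007 to 10318063, read 53.5%, 37.2%, 17.8% and 33.3% in cocaine and 0%, 29.3%, 27.9% and 24.0% in saline mice. It had the largest difference of the 23, 15.2 points, and did not pass (35.5% ± 14.7 against 20.3% ± 13.7, adjusted p = 0.877). Saline 1 had 0 methylated reads, at a depth where counting error alone allows a level of up to 2.86%. Reads need not be independent molecules, and saline 1 read 0% or 100% at intermediate cytosines more often than the other mice. Without saline 1 the difference was 8.39 points, and without cocaine 1 it was 9.13 points. A second run of 3 CpGs, at 10150055 to 10150176, read 89.2%, 91.5%, 91.6% and 88.9% in cocaine and 100%, 100%, 92.1% and 94.9% in saline mice. There the groups did not overlap, at 90.3% ± 1.47 and 96.8% ± 3.91 (adjusted p = 0.881). At 10045859 to 10045902, 3 CpGs read 38.9% ± 14.4 in cocaine and 49.0% ± 6.18 in saline mice, the most negative difference of the 23 at -10.2 points (adjusted p = 0.893). Cocaine 1 and cocaine 2 were low there, at 33.0% and 21.6%, and cocaine 3 and 4 lay within the saline range, at 53.9% and 46.9%. A run of 8 CpGs at 10302085 to 10302228 read 81.0% ± 3.90 and 81.3% ± 3.15.

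Chrm1 had 2 tested runs on chromosome 19, unlike in level. That at 8678590 to 8678723, of 5 CpGs, read 59.5%, 73.3%, 73.3% and 84.0% in cocaine and 80.8%, 72.5%, 79.1% and 78.8% in saline mice, a difference that did not pass (adjusted p = 0.930). The one at 8679208 to 8679378, of 11 CpGs on 83.4 to 144 reads per cytosine, read 15.3% ± 2.00 and 15.4% ± 4.11, with saline 1 lowest at 9.49%. A run of 15 CpGs within 5 kb of Chrm1 lies in the gene 9830166K06Rik and read at most 1.77%. For Chrm2 the only tested run, 3 CpGs at 2616 to 2713 bases from the start, read 92.3% ± 7.0 and 92.1% ± 5.14. Its run of 4 CpGs at 70774 to 70984 bases was above the tested range, at 93.8% to 97.7% in all mice.

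In the nicotinic cluster on chromosome 9, levels changed with distance from the Chrna3 start, though not steadily. The 30 CpGs at 142 to 670 bases read at most 2.95%, the 2 CpGs at 1009 to 1022 bases 61.9% ± 3.61 in cocaine and 46.7% ± 17.7 in saline mice, and the 8 CpGs at 2143 to 2293 bases 38.3% ± 9.28 and 38.0% ± 5.99. The 8 CpGs at 55015887 to 55016071, also within 5 kb of Chrna5, read 97.3%, 89.7%, 94.3% and 93.9% in cocaine and 89.2%, 91.2%, 91.9% and 90.2% in saline mice. Cocaine 2 lay among the saline mice, and the difference did not pass (adjusted p = 0.914). In Chrnb4 a run of 5 CpGs 4045 to 4200 bases into the gene was intermediate and even between mice, at 43.5% ± 2.38 and 44.6% ± 3.74.

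The tested runs of Chrna4 and Chrnb2 were highly methylated, while a Chrnb2 run of 2 CpGs, too short for the test, had a pooled level of 15.3%. In Chrna4 the 4 CpGs at 181028499 to 181028551 on chromosome 2 read 91.7%, 95.8%, 91.3% and 87.9% in cocaine and 74.1%, 85.1%, 88.6% and 93.8% in saline mice, on as few as 12 reads per cytosine (adjusted p = 0.902). Saline 1 was the lowest, and the other 7 mice overlapped. Its 5 CpGs at 181037454 to 181037550 read 81.2% ± 6.67 and 79.0% ± 4.62. In Chrnb2 the 9 CpGs at 89760524 to 89760737 on chromosome 3 differed little between mice, from 89.9% to 93.4%, at 91.7% ± 1.47 and 90.9% ± 0.896. The 3 CpGs at 89757448 to 89757469 read 77.5% ± 7.32 and 79.3% ± 4.83. Chrna7 had no tested run, since its 2 runs of at least 3 CpGs are both at the start, below 5%.

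Over all 89 runs of any length, the groups did not overlap in 3, or 3.37%, against 2.85% of the 259049 runs of the genome. Among the 23 tested runs there were 2, against 3.29% of all tested runs, and in that at Chrm4 all cocaine mice lay below the 5% limit for testing. The third was a single CpG of Chrm3 read on both strands at 10168569, at 65.8% ± 9.04 in cocaine and 77.9% ± 5.69 in saline mice. Of the 23 differences, 20 lay between -9.28 and 5.90 points, the range that holds the middle 90% of all tested runs.

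**Figure D4:**
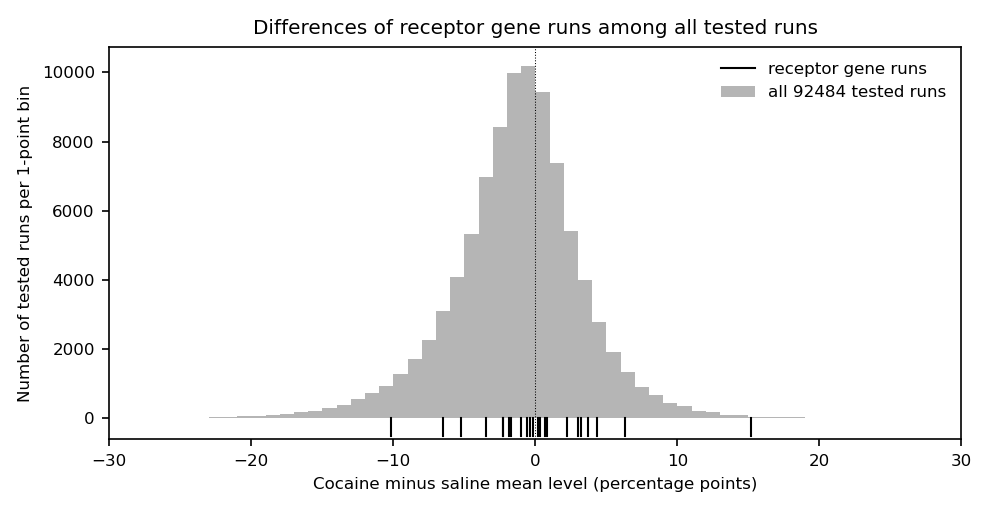
Cocaine minus saline mean level in percentage points (x axis, shown from -30 to 30) against the number of tested runs in each bin (y axis), grey bars for all 92484 tested runs of the genome and black ticks under the axis for the 23 runs at the receptor genes. The ticks span -10.2 to 15.2 points and lie mostly where the grey distribution is dense.

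The other genes of cholinergic signalling were read the same way, as 25 genes in 3 lists: other receptor subunits, genes of acetylcholine synthesis, transport and breakdown, and chaperones, modulators and anchors of the receptors. Of their loci 24 were tested, 0 passed, and 18 had the lower mean in cocaine mice, with a median difference of -1.21 points, beside 72.6% lower and -1.13 points over all loci. At an unadjusted p under 0.05 stood 1, beside 5.12% of all loci: Lypd1, which encodes a Ly6 family protein, whose locus read 22.3% in the saline and 15.5% in the cocaine group (adjusted p = 0.911). The Lypd1 run of smallest p lay the other way, at 11.5% in cocaine and 8.31% in saline mice. Of their 68 tested runs 0 were called and 3 had an unadjusted p under 0.05, 2 of them lower in cocaine mice, and 35 of the 68 means were lower. Over all tested runs 5.65% had such a p, 4.57% with the lower mean, and 61.8% of means were lower. By list, 2 of 29 runs of other subunits had such a p, 1 of 23 for synthesis and transport, and 0 of 16 for chaperones and modulators, each beside the 5.65% of all tested runs.

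The genes with the smallest run p were Chrne, Slc18a3 with Chat, and Chrna6. In Chrne, the epsilon subunit of the muscle receptor, 5 CpGs at 70616563 to 70616676 on chromosome 11 read 39.3%, 42.8%, 40.2% and 39.6% in cocaine and 43.8%, 59.2%, 57.8% and 44.6% in saline mice. These groups did not overlap (p = 0.0409, adjusted p = 0.876 in the quasi-binomial test with limma), and the run also lies in 4930544D05Rik. The other run of this list with an unadjusted p under 0.05, 3 CpGs at 70610414 to 70610456 within 5 kb of Chrne and inside Mink1, went the other way without overlap, at 97.1% ± 2.11 in the cocaine and 90.5% ± 3.60 in the saline group (adjusted p = 0.876). Slc18a3, the vesicular acetylcholine transporter, is encoded within the Chat locus, which encodes choline acetyltransferase, and both lie within 5 kb of a run of 4 CpGs at 32466080 to 32466175 on chromosome 14. It read 38.4% ± 11.2 in cocaine and 52.1% ± 8.16 in saline mice (p = 0.0430, adjusted p = 0.876 in the quasi-binomial test with limma). In Chrna6 a run read 21.8% ± 4.70 and 30.3% ± 12.6 (adjusted p = 0.876), with saline 1 highest at 48.2%.

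Saline 1 stood apart at the receptor genes too. Of their 85 cytosines with a pooled level from 20% to 80%, 13 were at 0% or 100% in saline 1, against 0 to 2 in each of the other 7 mice. Among the 27 runs of such level, saline 1 was the lowest or the highest mouse in 10, saline 2 in 9, cocaine 3 and saline 4 in 8 each, cocaine 1 in 7, cocaine 2 and cocaine 4 in 5 each and saline 3 in 2. Over all 75819 such runs of the genome saline 1 was at an extreme in 39.0%, cocaine 1 in 30.9%, cocaine 3 in 28.5%, cocaine 4 in 27.1%, saline 4 in 25.7% and the other 3 mice in 12.7% to 17.8%.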

How the data were processed

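Per the submitters' processing notes, the authors used bcl2fastq, Bismark version 22.1 and mm10. For read trimming and duplicate removal: not given in the sources used here. Per the file headers, the deposited tables give, for each CpG cytosine and strand, a methylation level, a fraction from 0 to 1 under a percent header, and the coverage, a deposited read count of at least 10. Level times coverage was whole at 100% of cytosines in every file (tolerance 5e-07 times the coverage), which gave methylated read counts.

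Cytosines on chromosomes 1 to 19, X and Y with 10 or more reads in all 8 samples (1510385 of 3101292) were used. Levels are methylated over all reads of a feature. Gene spans and promoters came from RefSeq tables of GRCm38.p6. Runs had gaps of at most 100 bp. Runs with at least 3 CpGs, loci (span and 5 kb) and start windows (1 kb either side; both gene ends where no start is listed) with at least 5 cytosines, each at a pooled level from 5% to 95%, were fitted genome-wide by quasi-binomial logistic regression on group. Dispersions were moderated with limma 3.58.1 (R 4.3.3), along a trend with log coverage and never below 1, then an F test and Benjamini-Hochberg adjustment. A call needed an adjusted p under 0.05 and 10 points (runs) or 5 points (loci, windows). The fits were checked on simulated reads. Those were drawn with the same excess spread for all features, while the measured runs differed in it. The check therefore does not show how small a change could be found here. P values rest on the spread between mice, a feature's own together with, through the moderation, that of all fitted features. The mean chi-square per run between libraries of a group was at least 4.74, so none was taken for a copy.

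The members, lists and tests were chosen with earlier results of these data known. All 10 receptor genes are named. Within each, the rule names the 2 tested runs of smallest p, the run with most CpGs and the run at the start, and of the cholinergic lists the 3 genes with the smallest run p. Further runs named in the text were chosen after their values were seen.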

Additional observations from a re-analysis of the deposited data

Results flagged for a closer look

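Among 66 groups of 4 mice at the tested runs and loci of the receptor genes, 3 held a mouse far from the other 3. Independent groups of normally distributed values would give about 1 in 20. The groups here share mice and reads, so that rate need not hold for them. In the Chrm3 run at 10024374 to 10024479, cocaine 1 read 76.9% and the other cocaine mice 56.2% to 59.1%; in the same run saline 1 read 23.8% and the other saline mice 61.8% to 81.0%. In the flank of Chrm4, from -716 to -644 bases relative to the start, cocaine 4 read 26.0% and the other cocaine mice 0% to 3.94%, on 15 to 39.9 reads per cytosine. In the Chrnb2 run at 89757448 to 89757469, cocaine 3 read 88.4% and the other cocaine mice 72.7% to 74.6%.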

How the results depend on the processing

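Calls numbered 0 for runs, for loci and for start windows, and also 0 under each alternative run, except that, with the replicate number as a block, 1 run of 92484 was called, with the lower mean in cocaine mice and not at a receptor gene. Leaving out each mouse in turn gave 0 to 0 calls. Deviations of same-numbered mice correlated at -0.0169, -0.0105, 0.00667 and 0.0772 over tested runs, and those of other-numbered mice at -0.139 to 0.0644. Such correlations cannot show whether same-numbered mice were paired, and the main fits took no pairing. Over 364 values of 24 receptor runs and loci under the alternatives, 0 were called and the lowest adjusted p was 0.360 (Chrm3 locus without cocaine 4). Signs changed in 30 values of 10 features, and 1 value, the Chrm4 locus without flanks, moved by more than the SD between mice. The block changed no other call. Gene loci at an unadjusted p under 0.05 numbered 741, and 2229 without cocaine 4, 462 without cocaine 1 and 1144 with equal weights for cytosines in limma. Depth limits Chrna4, with as few as 11 reads per cytosine in a tested run.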

Other observations

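Runs of 1 or 2 CpGs were too short for the test and are given as values, chosen after they were seen. In Chrna5, 1 CpG at 55003871 on chromosome 9 read 71.4%, 43.5%, 44.7% and 59.1% in cocaine and 72.4%, 82.9%, 73.3% and 56.3% in saline mice. In Chrna7, 48026 bases into the gene, 1 CpG at 63164500 on chromosome 7 read 3.45% in saline 1 and 47.4% to 77.2% in the other 7 mice, while the CpG at 63164682 read 65% in saline 4 and 23.1% to 41.6% in the others. In Chrnb2, 2 CpGs at 89757668 to 89757765 on chromosome 3 read 12.3% ± 3.29 in cocaine and 17.97% ± 5.30 in saline mice, and the nearby run of 3 CpGs at 89757448 to 89757469 read 77.5% and 79.3%. Before the Chrnb4 start, 2 CpGs at 55048721 to 55048745 read 6.67%, 0%, 4.55% and 9.72% in cocaine and 0%, 0.862%, 0% and 0% in saline mice.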
